A study of Homo sapiens with 2 samples.

Results

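The epidermal growth factor receptor EGFR, its relatives ERBB2 and ERBB4, their ligands and the receptor inhibitor ERRFI1 were examined in a pair of human melanoma cell lines. The members were 10 named genes, chosen by their place in this pathway, and every probe set whose platform annotation gives a member as its only symbol was taken. Of these 10 genes, 9 had such a probe set, with 34 probe sets in all, among 19775 genes on the array. AREG is named only. IGR39 is a line from a primary cutaneous tumour that the labels call achromic, and IGR37 was grown from a metastasis in a lymph node. The labels give no treatment for either line and the same culture in DMEM with serum. Total RNA of each was hybridised to 1 Human Genome U133 Plus 2.0 array, so each line stands for itself and there is no replicate. No test was run, and no difference below has a replicate check. The values are log2 expression levels made by the authors with RMA, and a difference is always the level in IGR37 minus the level in IGR39, so that a difference of 1 is 2-fold.

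EGFR is a receptor tyrosine kinase of the cell surface that pairs with itself or with ERBB2, ERBB3 or ERBB4 once a ligand is bound. TGFA, AREG, EREG, HBEGF and BTC are ligands that are made as membrane proteins and cut free by proteases of the ADAM family, and the neuregulins such as NRG1 bind ERBB3 and ERBB4. The receptors act through RAS and ERK and through PI3 kinase, and the signal induces its own inhibitors, ERRFI1 among them. In the melanocyte lineage ERBB3 is the usual family member, while EGFR is known from melanoma cells that have lost differentiation markers and from cells that tolerate targeted inhibitors.

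By the brightest probe set of each of the 9 members measured, 3 were much lower in IGR37, 2 were within 2-fold at a level above background, and 4 were at or near background in both lines. A level of log2 6 was used as the minimum, since 76.1% of all probe sets lay below it in IGR39 and 75.7% in IGR37. By the brightest probe set of each gene (the highest mean of both arrays), 5 members reached it in at least 1 line. EGFR, TGFA and ERRFI1 were 2-fold or more lower in IGR37, ERBB2 and NRG1 lay within 2-fold, and 0 were 2-fold or more higher. Of all 8501 genes at this level, 9.5% were 2-fold or more lower and 11.4% 2-fold or more higher, or 12.2% and 8.86% after the arrays were centred on housekeeping genes. All 5 members reached the minimum in IGR39, and 2 of them reached it in IGR37. These counts restate the differences, since EGFR, TGFA and ERRFI1 passed the minimum through IGR39 only. Over single probe sets, 8 of 34 reached the minimum. Of these 8, 5 were 2-fold or more lower and 3 lay within 2-fold, against 9.72% lower and 12.1% higher among all named probe sets at this level.

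**Figure D1:**
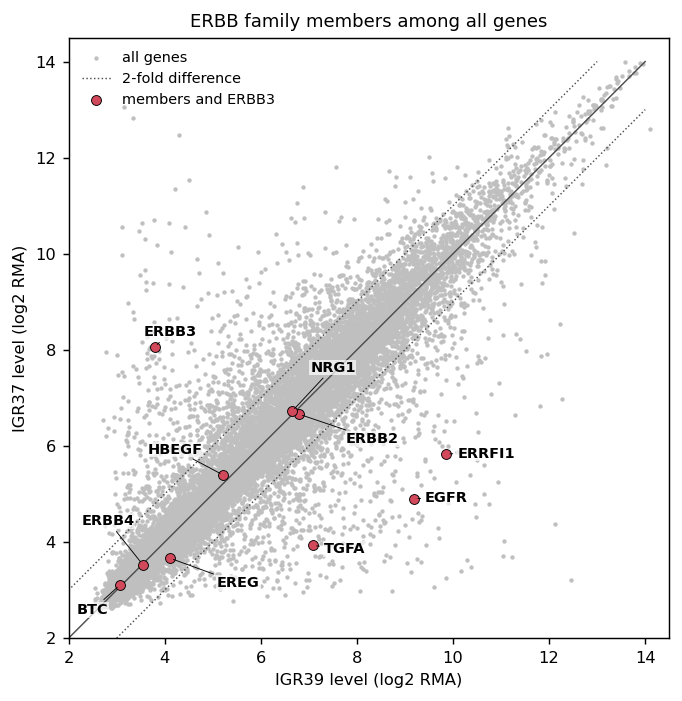
Each grey point is a gene, with its log2 RMA level in IGR39 on the x axis and in IGR37 on the y axis, from 1 array each. The solid line marks equal levels and the dotted lines a 2-fold difference. Red points are the 9 members and ERBB3, by the brightest probe set. EGFR (9.19 and 4.91), ERRFI1 (9.86 and 5.84) and TGFA (7.09 and 3.93) lie far below the lines, ERBB3 (3.79 and 8.06) lies above them, and the other members lie between them.

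The upstream sequences of the members that were lower in IGR37 are shown because these are the genes the comparison turns on. RefSeq windows of the build GRCh38.p14 were searched for 9 of the 10 members, and NRG1 was left out. Those of the lower members are given here as the 250 bases before each listed transcription start, on the strand of the gene. EGFR and TGFA each have 2 listed starts and ERRFI1 has 1. Capitals mark exact matches, on either strand, to the AP-1 motif TGAGTCA, the cyclic AMP response element TGACGTCA, the GC box GGGCGG and the TATA box TATAAA. No pair of these motifs overlapped in the windows printed.

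EGFR, first start, chr7:55018767-55019016, plus strand: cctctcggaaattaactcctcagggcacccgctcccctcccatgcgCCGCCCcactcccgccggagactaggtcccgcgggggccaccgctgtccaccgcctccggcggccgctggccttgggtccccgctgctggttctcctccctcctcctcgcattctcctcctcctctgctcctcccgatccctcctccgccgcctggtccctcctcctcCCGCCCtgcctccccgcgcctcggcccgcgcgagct

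EGFR, second start, chr7:55109589-55109838, plus strand: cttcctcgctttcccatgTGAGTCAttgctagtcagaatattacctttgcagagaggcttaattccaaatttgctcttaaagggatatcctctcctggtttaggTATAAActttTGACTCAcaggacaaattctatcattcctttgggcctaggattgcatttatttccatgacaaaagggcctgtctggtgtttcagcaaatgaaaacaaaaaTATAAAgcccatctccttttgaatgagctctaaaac

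TGFA, first start, chr2:70553827-70554076, minus strand: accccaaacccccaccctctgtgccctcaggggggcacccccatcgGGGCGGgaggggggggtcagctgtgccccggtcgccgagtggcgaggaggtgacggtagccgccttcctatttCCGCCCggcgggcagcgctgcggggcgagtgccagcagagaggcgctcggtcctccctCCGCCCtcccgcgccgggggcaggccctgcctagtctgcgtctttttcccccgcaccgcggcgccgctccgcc

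TGFA, second start, chr2:70553447-70553696, minus strand: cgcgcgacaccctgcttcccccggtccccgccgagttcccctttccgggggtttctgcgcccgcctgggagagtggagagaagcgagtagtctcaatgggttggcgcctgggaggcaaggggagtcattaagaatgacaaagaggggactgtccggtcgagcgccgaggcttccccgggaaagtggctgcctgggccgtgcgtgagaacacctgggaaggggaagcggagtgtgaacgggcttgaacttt

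ERRFI1, chr1:8026310-8026559, minus strand: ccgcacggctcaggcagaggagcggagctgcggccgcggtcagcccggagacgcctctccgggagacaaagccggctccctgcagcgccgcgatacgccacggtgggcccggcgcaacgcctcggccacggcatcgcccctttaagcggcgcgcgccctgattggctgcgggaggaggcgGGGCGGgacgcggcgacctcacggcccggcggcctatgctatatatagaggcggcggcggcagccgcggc

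The first EGFR window was 73.6% G and C, held 2 GC boxes and no TATA box, while the median over all 35116 windows was 58.0% G and C. The second EGFR window differed in composition, at 38.8% G and C, with 2 AP-1 matches that end 225 and 129 bases before the start and 2 TATA matches, of which the nearer ends 30 bases before the start. An AP-1 match was present in 4.2% of all windows and 2 or more in 0.182%. TGFA held 3 GC boxes at its first start and no match at its second, and ERRFI1 held 1 GC box. GC boxes were present in 42.6% of all windows, TATA matches in 10.7% and the cyclic AMP response element in 1.65%. GC boxes were also found in windows of HBEGF, ERBB4 and AREG, so they do not set the lower members apart. Among the windows of the 9 members searched, NRG1 being left out, the AP-1 motif was found at the second EGFR start only. A match describes the letters of the window and does not show a bound site, and which start either line used was not measured.

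EGFR itself was represented by 9 probe sets, and their differences varied in size. Probe set 201983_s_at, the brightest, stood at 9.19 in IGR39 and 4.91 in IGR37, which is a difference of -4.29 or 19.5-fold. Probe set 224999_at stood at 7.44 and 4.04, a difference of -3.40 or 10.5-fold. Both were well above the minimum in IGR39 and below it in IGR37, so the size of each difference rests on a value near background. Probe set 201984_s_at stood at 6.29 and 4.45, a difference of -1.84 or 3.59-fold. The remaining probe set at this level, 1565483_at, stood at 6.83 and 6.31, a difference of -0.52, and was the EGFR probe set that reached log2 6 in IGR37 as well.

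The other 5 EGFR probe sets lay below log2 6 in both lines. Probe set 211607_x_at stood at 5.77 in IGR39 and 4.46 in IGR37, which is a difference of -1.32. Probe set 210984_x_at stood at 5.32 and 4.44, a difference of -0.88, and with 1565484_x_at, at 5.69 and 5.44, the difference was -0.26. The ending _x_at means that some probes of these sets can bind other transcripts. The probe sets 211551_at and 211550_at were alike in both lines, at 3.99 and 3.94 and at 4.56 and 4.66. In all, 8 of the 9 values were lower in IGR37, 4 of them at least 2-fold, and the median difference was -0.88. The 2-fold lower sets included 211607_x_at, which was below the minimum in both lines. Of all named probe sets, 9.72% at the minimum and 1.51% below it were 2-fold or more lower. Probe sets of the same gene on the same arrays are not replicates, and some of these differences were small. The 9 differences ran from 0.10 to -4.29, so a single EGFR value depends on the probe set taken. When probe sets ending in _s_at and _x_at were left out, the brightest probe set became 1565483_at and the EGFR difference became -0.52. Probe set 224999_at was also kept in that setting, and its difference was -3.40. Averaged over all 9, the difference was -1.38.

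**Figure D2:**
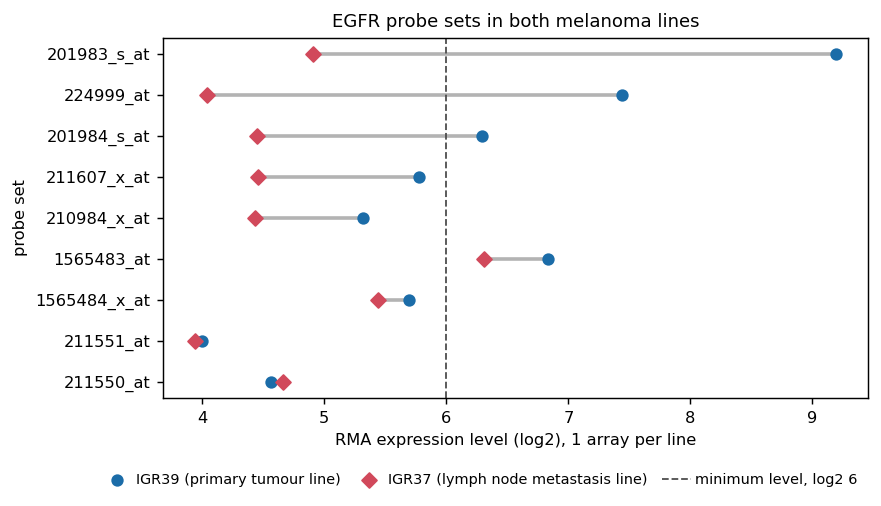
The log2 RMA level of each of the 9 EGFR probe sets (rows) in IGR39 (blue circles) and IGR37 (red diamonds), 1 array per line; the dashed line is the minimum of log2 6. Rows are ordered by difference and each row is to be read on its own, from 201983_s_at (9.19 against 4.91) to 211550_at (4.56 against 4.66).

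The spread among EGFR probe sets was wide. Over the 4 that reached log2 6, the highest and lowest differences were 3.77 apart. Among 306 genes represented by 4 or more such probe sets, the median range was 0.62, and 3 genes, EGFR included, had a range at least as wide (0.98%). The pooled SD between the differences of a gene was 0.40 over 3178 genes with 2 or more such probe sets. The deposited values do not say where on the EGFR transcripts the probes lie, and whether the lines differ in transcript form was not tested.

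The other receptors did not follow EGFR. ERBB2, the family member without a known ligand, stood at 6.80 in IGR39 and 6.66 in IGR37 on probe set 216836_s_at. Its other 2 probe sets were near background, at 3.72 and 3.82 and at 3.30 and 3.15, and all 3 differences lay between -0.14 and 0.10. ERBB4, a neuregulin receptor, was near background on all 4 of its probe sets, which lay between 3.12 and 3.54 in IGR39 and between 3.28 and 3.53 in IGR37. Within the family, the receptor that was higher in IGR37 was ERBB3, whose kinase is weak and which signals mainly as a partner. ERBB3 stood at 3.79 and 8.06 on probe set 226213_at and at 3.10 and 7.44 on 202454_s_at, differences of 4.27 and 4.35. Its other 3 probe sets stayed below log2 6 with differences from -0.19 to 0.70. EGFR was thus above the minimum in IGR39 where ERBB3 was near background on every probe set, and by the brightest probe sets the reverse held in IGR37, while 1565483_at of EGFR was above it in both.

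Of the ligands that reached the minimum, TGFA was the one 2-fold or more lower in IGR37. TGFA, a ligand specific to EGFR, stood at 7.09 in IGR39 and 3.93 in IGR37 on probe set 205016_at, a difference of -3.16 or 8.93-fold. The other 2 TGFA probe sets were below log2 6 in both lines, at 4.51 and 3.97 and at 4.59 and 4.07. All 3 were lower in IGR37, but the fold rests on 1 probe set and on an IGR37 value near background, and averaged over all 3 the difference was -1.41 and TGFA no longer reached the minimum.

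EREG, HBEGF and BTC stayed below log2 6 on every probe set in both lines. HBEGF, a ligand of EGFR and ERBB4 that binds heparin, had 4 probe sets, which lay between 3.96 and 5.22 in IGR39 and between 3.63 and 5.39 in IGR37, with differences from -0.33 to 0.17. EREG, which encodes epiregulin, stood at 4.11 and 3.66 on 1 probe set and at 2.77 and 2.76 on the other. BTC, which encodes betacellulin, stood at 3.07 and 3.11 and at 2.84 and 2.88. These values do not separate the lines, and at such levels a transcript that is present but dim cannot be told from background. EREG, AREG and BTC all lie on chromosome 4.

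For NRG1 the probe sets divided. This neuregulin, a ligand of ERBB3 and ERBB4, had 6 probe sets. The brightest of them, 208232_x_at, stood at 6.65 in IGR39 and 6.72 in IGR37, and it is of the kind that can bind other transcripts. The remaining 5 were below log2 6 in both lines and each was lower in IGR37. Among them, 208241_at stood at 5.18 and 3.50, a difference of -1.68, and 206343_s_at at 5.70 and 4.95, a difference of -0.75. The values of 206237_s_at were 5.34 and 4.73, those of 208230_s_at 4.84 and 4.39, and those of 208231_at 3.12 and 2.98. Of the 27939 named probe sets below log2 6 in both lines, 1.51% were 2-fold or more lower in IGR37, and 2 of the 26 member probe sets at this level were, 208241_at of NRG1 and 211607_x_at of EGFR. Averaged over its 6 probe sets, the NRG1 difference was -0.59, and without probe sets ending in _s_at or _x_at it was -1.68.

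ERRFI1 encodes a cytoplasmic protein, also called MIG6, that binds the EGFR kinase and blocks it. On its 1 probe set it stood at 9.86 in IGR39 and 5.84 in IGR37, which is a difference of -4.03 or 16.3-fold, with the IGR37 value just below the minimum. The inhibitor was therefore lower in the same line as its receptor, and no other probe set of ERRFI1 was there to set beside it.

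**Figure D3:**
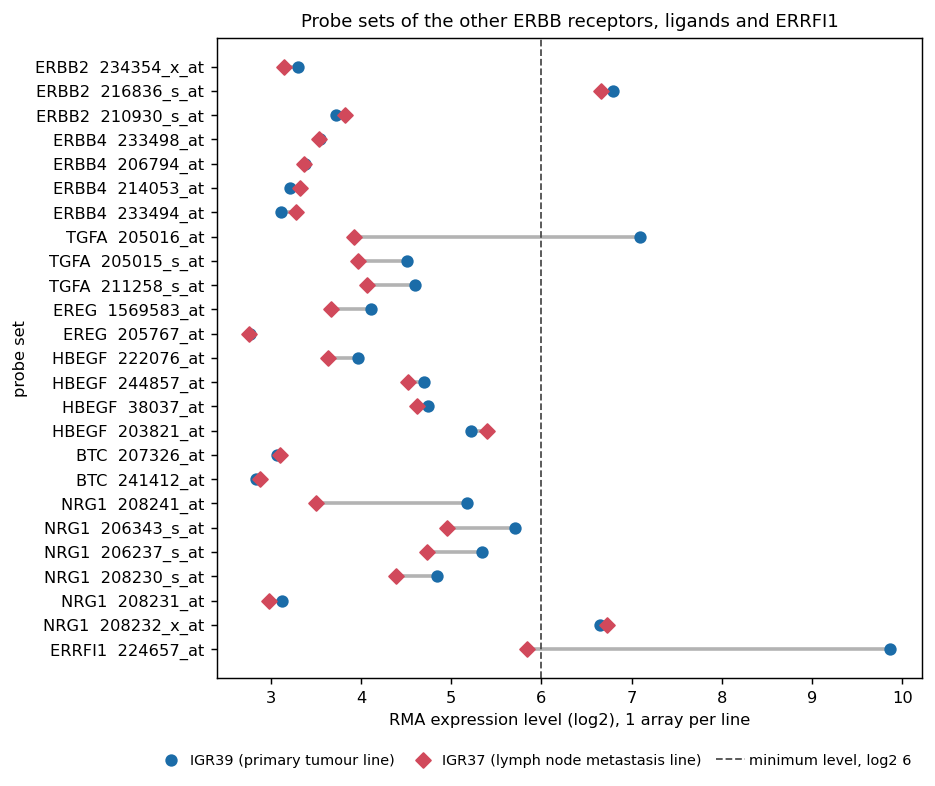
The log2 RMA level of the 25 probe sets of the other 8 members (rows, labelled by gene) in IGR39 (blue circles) and IGR37 (red diamonds), 1 array per line; the dashed line is the minimum of log2 6. Long bars belong to TGFA 205016_at (7.09 against 3.93), ERRFI1 (9.86 against 5.84) and NRG1 208241_at (5.18 against 3.50), and the ERBB2, ERBB4, BTC and HBEGF pairs lie close together.

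The scaling of the arrays moved these values little. Under median centring, removal of a lowess trend and centring on housekeeping genes, the difference of EGFR 201983_s_at lay between -4.45 and -4.26, that of TGFA between -3.32 and -3.13 and that of ERRFI1 between -4.19 and -4.0. Small differences changed sign among these settings, with NRG1 208232_x_at from -0.090 to 0.095 and EGFR 211550_at from -0.063 to 0.13. The median difference of all genes at the minimum was 0.07, and -0.10 after centring on housekeeping genes. Technical differences between the arrays were seen in control probe sets. The 18 hybridisation controls differed by -0.14 to 0.21, with a median of 0.02. The 24 poly-A controls, added before labelling, differed by -0.47 to 0.68, with a median of 0.25. The differences of EGFR on 201983_s_at, 224999_at and 201984_s_at and those of TGFA 205016_at and ERRFI1 lay outside both ranges. So did smaller differences of EGFR 1565483_at, 210984_x_at and 211607_x_at and of TGFA 205015_s_at and 211258_s_at. NRG1 208241_at, 206343_s_at and 206237_s_at lay outside both ranges as well. The differences of ERBB2, ERBB4, HBEGF, BTC and EREG and of the remaining EGFR and NRG1 probe sets lay inside the range of the poly-A controls.

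The pairs of levels nearest to that of EGFR 201983_s_at, by Euclidean distance over the 2 arrays on the log2 scale, were those of F3 (0.30), SAMD9 (0.31), LDOC1 (0.32), ID1 (0.39) and CCL5 (0.44). F3, which encodes tissue factor, stood at 9.27 in IGR39 and 4.61 in IGR37. Levels of different probe sets depend on how well their probes bind, and all 5 genes were below the minimum in IGR37, so this nearness describes array values and not like amounts of RNA.

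Genes that release the ligands differed in both directions. The pathway lists here and below were chosen with earlier results of these data known, so their shares are descriptive only. As with the members, a gene that passed the minimum only through the line where it was higher restates its difference in these counts. Of 11 measured sheddases and iRhom genes, 9 reached log2 6, 4 of these (44.4%) were 2-fold or more lower and 1 (11.1%) was 2-fold or more higher, beside 9.5% and 11.4% of all genes. The median difference was -0.46, against 0.07 for all genes. ADAM19, a metalloprotease reported to cut neuregulin, stood at 8.33 and 4.13, the largest negative difference as measured. ADAM10, which cuts BTC and EGF, was the positive extreme at 8.58 in IGR39 and 9.64 in IGR37, which is a difference of 1.06 that fell below 2-fold after lowess or housekeeping centring. ADAM17, the main protease for TGFA, stood at 8.15 and 7.86, and its cofactor RHBDF2 at 6.74 and 6.80. The lower members also included ADAM12, at 6.93 and 3.21, and RHBDF1, at 7.57 and 6.32. The IGR37 values of ADAM19 and ADAM12 were near background, so the order of these differences cannot be read. Averaging the probe sets of each gene, 2 of 7 were 2-fold or more lower, 1 was higher and the median was -0.074. In that setting 8.56% of all genes were lower and 10.0% higher.

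Among inhibitors of the receptors and proteins that degrade them, 15 of 21 measured genes reached the minimum. Of these, 5 (33.3%) were 2-fold or more lower, ERRFI1 among them, and 1 (6.67%) was higher, beside 9.5% and 11.4% of all genes. Among the lower genes, MVP, ERRFI1 and LRIG1 passed the minimum through IGR39 only. The median was -0.39. MVP, the major vault protein, was the negative extreme at 9.52 in IGR39 and 5.48 in IGR37, the latter below the minimum. It is 1 of the 5 lower genes, although it is not an established inhibitor or degrading protein of the receptors. The phosphatase PTPRK, which removes phosphate from EGFR, stood at 9.42 and 7.40, and the membrane inhibitor LRIG1 at 6.01 and 4.64. NEDD4L, a ubiquitin ligase, was the one higher, at 7.12 and 9.57, and the second probe set above the minimum differed by 0.62. The ligases CBL and CBLB, which mark EGFR for degradation, lay within 2-fold, at 7.60 and 7.36 and at 6.89 and 6.50. Without probe sets ending in _s_at or _x_at, 2 of 11 were 2-fold or more lower and 0 higher.

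Most adaptors that dock on the receptors lay within 2-fold, as did most of all genes, and of the others more were higher than lower in IGR37. Of 23 measured, 16 reached the minimum, 11 lay within 2-fold, 4 (25.0%) were 2-fold or more higher and 1 (6.25%) was lower, beside 11.4% and 9.5% of all genes. The median was 0.088. After centring on housekeeping genes, 3 of 16 were higher and 1 was lower, beside 8.86% and 12.2% of all genes. Among the higher genes, GAB2 and STAT5B passed the minimum through IGR37 only. GRB2, the adaptor that brings SOS to the receptor, stood at 8.19 in IGR39 and 8.11 in IGR37, and SHC1 at 9.82 and 9.38. GAB2, a scaffold for PI3 kinase, was the positive extreme at 5.24, near background, and 7.30, and VAV2 the negative extreme at 7.61 and 6.18. Averaging the probe sets of each gene, 2 of 11 were higher and 0 lower, beside 10.0% and 8.56% of all genes. In the endocytosis list, 22 of 23 measured genes reached the minimum and 18 lay within 2-fold, with 3 (13.6%) higher, 1 (4.55%) lower and a median of 0.17. EPS15, an endocytic adaptor phosphorylated by EGFR, was at 8.35 and 9.91, while CAV1, the coat protein of caveolae, was the one lower, at 11.96 and 7.92.

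Of 8 measured RAS, RAF, MEK and ERK genes, 6 reached the minimum and all 6 lay within 2-fold, with a median of -0.062. Most of all genes at this level did so too, since 9.5% were 2-fold or more lower and 11.4% higher. RRAS2, a RAS relative, stood at 7.99 in IGR39 and 7.02 in IGR37, and passed the 2-fold limit after lowess or housekeeping centring; its 3 probe sets above the minimum differed by -1.73 to -0.97. MAP2K1, which encodes MEK1, stood at 7.41 and 8.26.

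Genes that EGFR signalling is known to induce were divided. Of 27 measured, 23 reached the minimum, 8 (34.8%) were 2-fold or more lower in IGR37, beside 9.5% of all genes, 3 were higher, close to the share of all genes (11.4%), and 12 lay within 2-fold. The median was -0.40. JUN, a subunit of AP-1, was the negative extreme at 8.09 in IGR39 and 3.98, near background, in IGR37, and the second probe set above the minimum differed by -1.69. LIF, a cytokine, stood at 7.71 and 4.51, and FOSL1, another AP-1 subunit, at 10.52 and 7.87. FOS went the other way and was the positive extreme, at 5.60 and 8.23. The dimmer values of LIF and FOS were below the minimum, so the size of these differences rests on levels near background. The feedback genes of ERK were divided too: DUSP6 stood at 8.54 and 8.04, DUSP4 at 10.42 and 10.80, SPRY4 at 8.06 and 6.79 and SPRY2 at 8.72 and 9.68. Without probe sets ending in _s_at or _x_at, 4 of 15 were lower, 2 were higher and the median was 0.085.

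**Figure D4:**
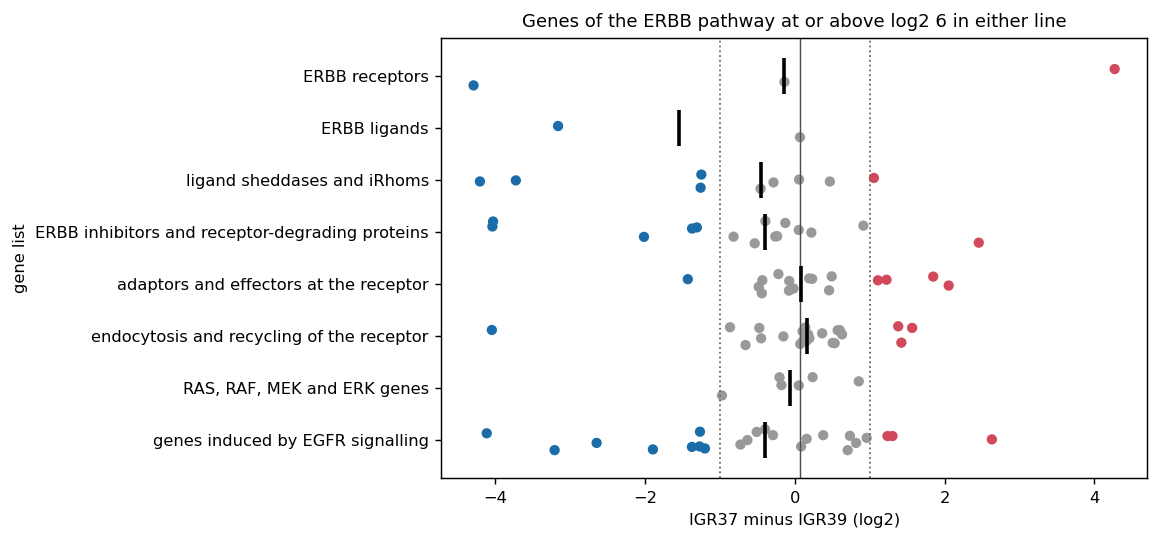
Difference of IGR37 minus IGR39 (log2, x axis) for each gene of 8 pathway lists (rows) that reached log2 6 in either line; 1 array per line, vertical scatter is for legibility. Blue points are 2-fold or more lower in IGR37, red 2-fold or more higher and grey within 2-fold; black bars are list medians, dotted lines the 2-fold limits and the solid line the median of all genes (0.07). The 6 genes of the RAS, RAF, MEK and ERK list all lie within the limits, as most of all genes do. The sheddase, inhibitor and induced-gene lists have more blue points than red.

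Cell type markers were read beside these values, since keratinocytes and fibroblasts also make EGFR. Of 7 keratinocyte markers, KRT10 reached log2 6, at 9.13 in IGR39 and 9.08 in IGR37, while KRT5, KRT14 and DSG3 were near background at 3.25 to 3.87 in both lines, and the mean level of the list was 4.57 in each line. Of 8 fibroblast markers, 1 reached log2 6 in IGR39 and 2 in IGR37, with list means of 4.84 and 4.74. COL1A2 was higher in IGR39, at 6.27 and 3.84, and LUM was higher in IGR37, at 3.41 and 6.26. COL1A1 lay within 2-fold, at 5.87 and 6.15. DCN and PDGFRB were near background at 3.64 to 4.57, and COL3A1, PDGFRA and THY1 also stayed below log2 6. Of 9 markers of lymphocytes and macrophages, 0 reached log2 6, and the highest value was 5.03. Of 7 melanocyte lineage markers, all reached it in IGR37, and MITF was the one that did in IGR39. All 7 were 2-fold or more higher in IGR37, so the level of EGFR differed along with the level of differentiation markers, and with 1 array per line the part of lineage state, line and culture in the EGFR difference cannot be told apart. Fewer cells with a transcript and less RNA per cell likewise cannot be told apart in total RNA.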

How the data were processed

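Total RNA of 2 melanoma lines was measured on 1 array each. The authors deposited log2 expression levels, made by RMA with affy according to the submitters' processing notes. Not given in the sources used here are versions and which arrays were normalised together. RMA gives arrays like distributions, which removes overall differences in brightness, and it shrinks differences at low levels. Of 54675 probe sets, 41091 had 1 symbol (41037 matched RefSeq, GRCh38.p14), 1801 had several and 11721 were unnamed here; the last 2 kinds and 62 controls gave no gene value.

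A gene was represented by its brightest probe set, taken on the mean of the arrays. Counts used a minimum of log2 6 in either array and a difference of 1 (2-fold). All members were named with every probe set, and from each other pathway list the positive and negative extreme, with ERBB3, EGF and EPGN whatever their value; other list genes and markers named were chosen after their values were seen. EGF stood at 3.25 and 3.23, EPGN is not reported here, and neither are list genes without a named probe set. Members and lists were chosen with earlier results of these data known. With 1 array per line the number of arrays limits the precision and no test was possible. Alternatives were a minimum of log2 5, of log2 7 or none, the mean over probe sets, leaving out _s_at and _x_at probe sets, and 3 scalings (lowess span 0.3). The calculation was tested on simulated data. Python 3.11.15, numpy 2.4.6, pandas 2.3.3, statsmodels 0.14.6 and matplotlib 3.10.9 were used.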

Additional observations from a re-analysis of the deposited data

How the results depend on the processing

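The 3 members EGFR, TGFA and ERRFI1 were the ones 2-fold or more lower in IGR37 at every minimum and under every scaling tried. With the mean over all probe sets, EGFR and ERRFI1 were, the EGFR difference was -1.38 instead of -4.29, and 0 ligand genes were lower because none reached the minimum. Without probe sets ending in _s_at or _x_at, TGFA and ERRFI1 were. Then 3 member probe sets were lower instead of 5, since fewer were counted. The EGFR difference was -0.52 by 1565483_at, while 224999_at, also kept, differed by -3.40. List medians moved as well. For ligands the median was -1.54 over the 2 genes at the minimum and -0.20 over 4 genes at a minimum of log2 5. With no minimum, where dim genes enter, it was 0.038 over 9 genes. At log2 7 or without _s_at and _x_at probe sets it was -3.16, the value of TGFA alone. For receptors the median of -0.14 over 3 genes became -1.38 with the mean over probe sets, where EGFR alone reached the minimum. Without _s_at and _x_at probe sets it was 1.88 over 2 genes. The inhibitor median was -1.23 with the mean over probe sets, the sheddase median -1.25 at a minimum of log2 7, and the median of induced genes 0.085 without _s_at and _x_at probe sets. No paired analysis was possible because each line has 1 array and the results come from no test. A change of a value was judged against the pooled SD of 0.40 between probe sets of a gene, which covers neither cultures nor arrays. Levels below log2 6 limit what can be said of EREG, HBEGF, BTC and ERBB4, and of the size of the EGFR, TGFA and ERRFI1 differences.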
